A study of Mus musculus with 8 samples.

Results

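The TRIM (tripartite motif) family was taken as every row of the count table whose gene symbol is Trim followed by a number and at most 1 letter, which gave 67 genes of the 24537 in the table. Of these, 17 were listed as antiviral, either for reported roles in antiviral defence or as close relatives of such genes. They are called antiviral below, and 50 make up the others. The counts come from RNA sequencing of cells sorted for EpCAM, an epithelial surface protein, from dissociated pancreatic tumours of 8 FVB/NJ mice aged 44 to 49 days, with 1 tumour per mouse. The 4 tumours labelled KO carried Lifr f/f, that is, both copies of the gene for the leukaemia inhibitory factor receptor were floxed. Among the 4 labelled WT, replicates 1 and 2 were f/+ and replicates 3 and 4 were +/+ at Lifr, so this group joins a pair of genotypes. Every mouse, in both groups, also carried Pdx1-Cre with Trp53 f/f and the Rosa26 LSL-Luc reporter, among other alleles. Cre was driven by the Pdx1 promoter, active in the pancreatic epithelium, which directs the cutting of floxed alleles to that lineage and not to immune or stromal cells.

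TRIM proteins are mostly RING-type ubiquitin ligases, built from a RING finger, B-box zinc fingers and a coiled coil, with a C-terminal part that differs between members and binds the target. Many antiviral members have a SPRY domain at that end and act on the sensing of viral RNA and DNA, either by attaching ubiquitin to sensors and adaptors or by binding viral proteins directly. Interferons raise the transcription of many of them through interferon-stimulated response elements in their promoters. Other members silence chromatin, turn over muscle and neuron proteins, or act in epithelia, and some lack the RING finger.

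Several antiviral members lie side by side on chromosome 7 and some of them have near-identical promoters, which is why the following sequences are shown. They are from RefSeq (GRCm38.p6), where 52 of the 67 genes had a promoter window of 300 bases (250 before to 50 after a transcription start). The letters GAAANNGAAA, a loose form of the interferon-stimulated response element, were searched on both strands. The letters TTCNNNGAA, a loose STAT site that reads the same on both strands, were searched as well, and matches of the same motif were allowed to overlap. The first lines give the 250 bases before the start of Trim30a (chr7:104465194-104465443, minus strand), Trim30d (chr7:104507850-104508099, minus strand) and Trim6 (chr7:104218545-104218794, plus strand) on the gene's own strand. Capitals mark the response-element letters, here on the strand opposite to the gene, and the Trim6 stretch has none.
Trim30a: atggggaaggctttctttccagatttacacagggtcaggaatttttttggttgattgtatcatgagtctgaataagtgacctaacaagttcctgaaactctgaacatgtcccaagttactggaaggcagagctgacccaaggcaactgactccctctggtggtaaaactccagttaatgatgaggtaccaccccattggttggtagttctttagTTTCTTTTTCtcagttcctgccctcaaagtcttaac
Trim30d: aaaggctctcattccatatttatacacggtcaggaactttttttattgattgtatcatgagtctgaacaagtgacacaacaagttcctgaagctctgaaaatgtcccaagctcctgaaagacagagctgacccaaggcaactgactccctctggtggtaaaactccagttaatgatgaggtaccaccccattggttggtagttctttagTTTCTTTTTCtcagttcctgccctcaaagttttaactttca
Trim6: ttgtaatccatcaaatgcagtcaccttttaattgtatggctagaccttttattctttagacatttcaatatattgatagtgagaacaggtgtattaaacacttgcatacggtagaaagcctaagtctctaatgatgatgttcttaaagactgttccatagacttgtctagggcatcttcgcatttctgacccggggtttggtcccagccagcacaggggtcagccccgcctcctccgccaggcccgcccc

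Shifted by 5 bases against each other, the Trim30a and Trim30d stretches matched at 226 of 245 bases, or 92.2%. In both, the response-element letters stood just upstream of the start, with their first base 36 bases before it in Trim30a and 41 before it in Trim30d. The next lines give 30 bases round each match in a TRIM promoter, on the strand on which the capitals read as GAAANNGAAA, to show how alike the sites and their flanks are. The windows are Trim30a (chr7:104465210-104465239, plus strand), Trim30d (chr7:104507871-104507900, plus strand), a second start of Trim30a (chr7:104446104-104446133, plus strand), Trim12c (chr7:104353359-104353388, plus strand), Trim5 (chr7:104288136-104288165, plus strand) and Trim12a (chr7:104315466-104315495, plus strand). The others are Trim34a (chr7:104244457-104244486, minus strand), Trim21 (chr7:102565447-102565476, minus strand), Trim26 (chr17:36836979-36837008, minus strand) and Trim2 (chr3:84212791-84212820, plus strand), of which Trim21 and Trim26 each hold a pair of overlapping matches.
Trim30a: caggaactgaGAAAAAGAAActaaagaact
Trim30d: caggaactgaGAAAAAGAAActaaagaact
Trim30a second start: caggaactgaGAAAAAGAAActaaaaacaa
Trim12c: agctggaaatGAAACAGAAAccacaactct
Trim5: ctctggaaatGAAACAGAAAccacaactct
Trim12a: ctctggaaatGAAACAGAAAccacaactct
Trim34a: gcagagaaaaGAAACTGAAActccaaacca
Trim21: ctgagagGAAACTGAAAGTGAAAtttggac
Trim26: ggcccgaGAAAAGGAAAGTGAAAtcggaag
Trim2: ctgtcttagaGAAAAGGAAAccaaagctga

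Among the antiviral genes, 8 of the 15 with a promoter window held the response-element letters (53.3%), against 1 of 37 among the other TRIM genes (2.7%), where the match was at 1 of several starts of Trim2. Over all RefSeq promoters of the same length, 1131 of 32851 held them (3.44%), which are promoters of 1079 of 27025 genes (3.99%). Of those 8 antiviral genes, 3 passed as higher in the test described below, tumours labelled KO against labelled WT (Trim30a, Trim30d and Trim21). Another 3 did not pass (Trim34a, Trim12c and Trim26) and 2 had too few counts to test (Trim5 and Trim12a). Trim2, outside the antiviral list, was called lower, and its match was not at the start of the counted transcript. Of all genes tested, 11.1% were called higher and 10.8% lower. The 8 are not separate cases, since Trim30a and Trim30d have near-identical promoters and Trim12c, Trim5 and Trim12a hold the same matched letters. The antiviral genes with a window and no match comprised 1 lower gene, Trim6, 4 that did not pass and 2 not tested. Trim14 and Trim65, the other antiviral genes called higher, had no promoter window and are outside this split. The STAT letters were in the window of 1 of 15 antiviral genes, Trim38, and of 4 of 37 others, Trim15, Trim31, Trim45 and Trim46, against 8.3% of all promoters and 9.55% of all genes with one. A match describes letters only, and binding was not measured.

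Counts summed over genes to between 14938875 and 22698340 per tumour, of which TRIM genes took 0.157% to 0.193%. Levels are given as CPM, counts scaled to a library of 1000000 with TMM factors. Those factors lay between 0.890 and 0.965 for the tumours labelled KO and between 1.05 and 1.10 for the tumours labelled WT. Lifr itself was at 158, 205, 150 and 220 CPM in the tumours labelled KO, against 126 and 93.7 CPM in the f/+ and 71.8 and 99.6 CPM in the +/+ tumours labelled WT. The labelled knockout is thus not seen as a lower Lifr level, which was above that of every tumour labelled WT. This level cannot check the labels, because it counts exons along all 9641 bases of the transcript. Which part of Lifr was floxed was not known here. Lifr RNA from cells in which Cre does not act would be counted as well. Whether Lifr was cut was not tested, and every direction given here rests on those labels. The sort marker's cell type was present, as all 10 epithelial markers were detected, but so were all 10 macrophage markers. In these sorted but bulk samples, fewer cells of a type and less RNA per cell cannot be told apart.

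Of the 67 TRIM genes, 8 had no count in any tumour, 43 passed the filter on low counts and were tested, and 24, those 8 included, were not. In the test across all 14728 genes (edgeR quasi-likelihood, Benjamini-Hochberg adjustment, called under 0.05), 8 TRIM genes were higher and 3 lower when the tumours labelled KO were set against those labelled WT, and 32 did not pass. The 8 are 18.6% of the TRIM genes tested, beside 11.1% of all genes tested that were called higher. The 3 are 6.98%, beside 10.8% of all genes called lower. Of 13 antiviral genes tested, 5 were higher (38.5%), 1 was lower and 7 did not pass, with a median log2 fold change of 0.47. Of 30 others tested, 3 were higher (10%), 2 were lower and 25 did not pass, with a median of -0.21, and the median over all genes tested was 0.011. The signs were positive for 10 antiviral and 11 other genes, and negative for 3 antiviral and 19 other genes. The difference between the antiviral and the other genes was described and not tested, because the lists were chosen with results of these data known.

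**Figure D1:**
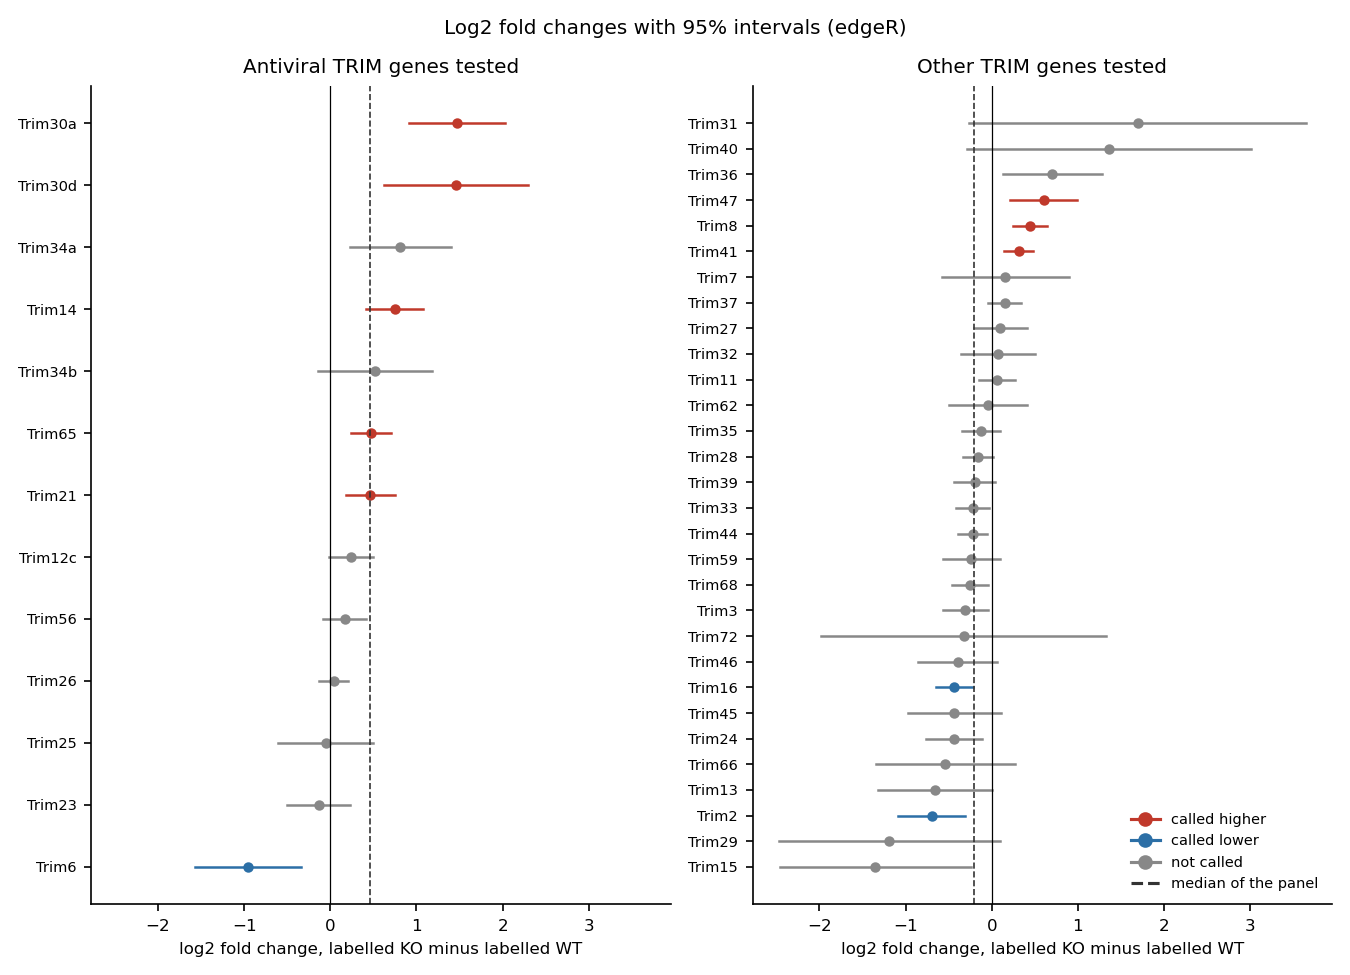
Log2 fold change of each tested TRIM gene (x axis, labelled KO minus labelled WT, edgeR) with its 95% interval, for the 13 antiviral genes on the left and the 30 others on the right. Red genes were called higher, blue genes lower and grey genes neither; the dashed lines are the medians, 0.47 for the antiviral genes and -0.21 for the others.

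The largest rises among the called genes were those of a pair of neighbours on chromosome 7. Trim30a, which in the mouse restrains NF-kB signalling from Toll-like receptors, was at 114, 143, 93.3 and 66.7 CPM in the tumours labelled KO, against 38.1, 32.6, 30.2 and 49.6 CPM in those labelled WT. The groups did not overlap, though the lowest tumour labelled KO, replicate 4, lay nearest to the highest labelled WT, which was also a replicate 4 (the numbers pair nothing). Trim30a thus averaged 104 ± 32.3 CPM in the tumours labelled KO and 37.6 ± 8.66 CPM in those labelled WT (SD, n = 4 each). The 2.77-fold difference, 1.47 ± 0.24 on the log2 scale (SE, 95% interval 0.92 to 2.03), was called (edgeR adjusted p = 0.00638). Among the f/+ and +/+ tumours labelled WT the Trim30a means were 35.3 and 39.9 CPM. With any 1 tumour left out, the call remained in each of the 8 fits. It was lost only against the +/+ tumours alone, at a log2 fold change of 1.39 (edgeR adjusted p = 0.0563). Per kilobase of transcript, Trim30a had 27.7 CPM in the tumours labelled KO and 10.004 CPM in those labelled WT, which put it among the more abundant TRIM genes in the tumours labelled KO.

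Trim30d, also called TRIM79 and known in mice to restrict tick-borne flaviviruses, was at 11.1, 13.1, 11.9 and 5.43 CPM in the tumours labelled KO, against 5.94, 2.51, 2.47 and 4.18 CPM in those labelled WT. The groups overlapped, since KO replicate 4 lay below WT replicate 1. With averages of 10.4 ± 3.41 CPM for the tumours labelled KO and 3.78 ± 1.65 CPM for those labelled WT (SD, n = 4 each), the log2 fold change was 1.46 ± 0.37 (SE, edgeR adjusted p = 0.024). The call was lost on leaving out KO replicate 1, 2 or 3 or WT replicate 2 or 3, with log2 fold changes of 1.41, 1.33, 1.39, 1.31 and 1.30 in those fits. Of the 50-base stretches of the GENCODE transcript used for Trim30d, 15.4% also occur in another gene, most of them in Trim30a. Of those of Trim30a, 6.53% occur in Trim30d, so a part of the reads of either gene could be counted for the other. The Trim30d transcript compared has 1855 different stretches, while the counted one has 3748 bases. The share in the counted Trim30d sequence can therefore differ.

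Trim6, whose human counterpart makes the free ubiquitin chains that activate the kinase IKBKE, went the other way. Its levels were 4.11, 2.32, 3.47 and 4.49 CPM in the tumours labelled KO, against 7.08, 7.13, 9.19 and 4.60 CPM in those labelled WT. The groups did not overlap, but KO replicate 4 and WT replicate 4 lay next to each other. The average was 3.599 ± 0.95 CPM for the tumours labelled KO and 6.998 ± 1.88 CPM for those labelled WT (SD, n = 4 each), and Trim6 fell by 0.95 ± 0.27 on the log2 scale (SE, edgeR adjusted p = 0.0365). Leaving out any of replicates 1 to 3 of either group ended the call, with adjusted p-values (edgeR) of 0.063 to 0.097 and log2 fold changes of -1.03 to -0.79.

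Trim6 and the Trim30 genes are the 2 ends of a run of 9 TRIM genes over 289.1 kb of chromosome 7 (mm10, 104218795 to 104507849), in which neighbours are at most 200 kb apart. In order they are Trim6, Trim34a, Trim5, Trim12a, Trim34b, Trim12c, Trim30b, Trim30a and Trim30d, and all are antiviral by the list. Trim30a and Trim30d were higher, Trim6 was lower, Trim34a, Trim34b and Trim12c did not pass, and the other 3 were not tested. Trim34a, an interferon-induced relative of the retrovirus restriction factor TRIM5, was at 3.02, 2.59, 3.402 and 2.06 CPM in the tumours labelled KO, against 1.51, 2.002, 1.12 and 1.65 CPM in those labelled WT. The groups did not overlap, yet the log2 fold change of 0.81 ± 0.26 narrowly missed the threshold (SE, edgeR adjusted p = 0.0527). It passed in DESeq2 (adjusted p = 0.0267) and in edgeR without KO replicate 4 (0.92, adjusted p = 0.0436) or WT replicate 2 (0.96, adjusted p = 0.0474).

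Trim34b, the near-copy of Trim34a, averaged 2.44 ± 0.42 CPM in the tumours labelled KO and 1.70 ± 0.56 CPM in those labelled WT (SD, n = 4 each), a log2 difference of 0.52 (edgeR adjusted p = 0.232). Since 41.5% of the 50-base stretches of Trim34a occur in Trim34b and 59% of those of Trim34b in Trim34a, neither value can be held apart from the other with certainty. Trim34a also overlaps a gene on the opposite strand, Gm47248, over 609 exonic bases. Trim12c, one of the mouse counterparts of TRIM5, averaged 26.2 ± 3.83 CPM in the tumours labelled KO and 22.2 ± 1.24 CPM in those labelled WT (SD, n = 4 each), with a log2 difference of 0.24 (edgeR adjusted p = 0.158), and 40.7% of its 50-base stretches occur elsewhere, mainly in Trim5. Trim5 itself had 2, 4, 2 and 3 counts in the tumours labelled KO and 0, 2, 3 and 2 in those labelled WT. Trim30b, a relative of Trim30a, had 11, 9, 9 and 12 counts in the tumours labelled KO and 9, 9, 9 and 8 in those labelled WT, and Trim12a had none in any tumour.

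**Figure D2:**
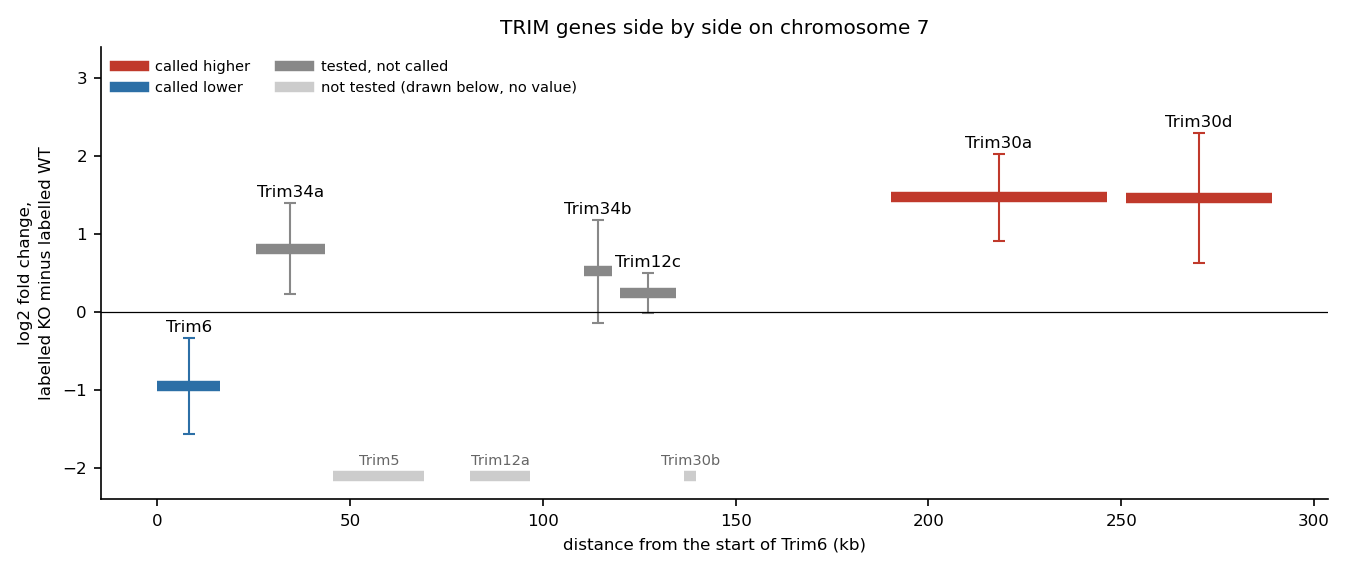
The 9 TRIM genes of the chromosome 7 run by distance from the start of Trim6 (x axis, kb) and log2 fold change (y axis, labelled KO minus labelled WT, with 95% intervals); the width of a bar is the span of the counted transcript. Trim6 at one end was lower (-0.95), Trim30a and Trim30d at the other were higher (1.47 and 1.46), and the 3 genes drawn at the bottom had too few counts to test.

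Of the antiviral genes outside this run, 3 rose. Trim14, an adaptor without a RING finger that helps the mitochondrial adaptor MAVS to signal, was at 55.3, 63.2, 50.1 and 39.6 CPM in the tumours labelled KO, against 26.3, 31.1, 34.3 and 32.3 CPM in those labelled WT. The groups did not overlap, and Trim14 averaged 52.0 ± 9.91 CPM in the tumours labelled KO and 31.0 ± 3.41 CPM in those labelled WT (SD, n = 4 each). The log2 fold change was 0.75 ± 0.15 (SE, edgeR adjusted p = 0.0106), and the call remained with any 1 tumour left out. A gene on the opposite strand, Gm16731, overlaps 163 bases of its exons.

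Trim65, which ubiquitinates the RNA sensor MDA5, was at 14.4, 17.3, 16.8 and 16.5 CPM in the tumours labelled KO, against 11.1, 12.2, 12.1 and 11.3 CPM in those labelled WT. No tumour labelled KO fell within the narrow range of those labelled WT, and the log2 fold change was 0.47 ± 0.10 (SE, edgeR adjusted p = 0.0132). The call remained with any 1 tumour left out and was lost with library totals alone, at 0.30 (edgeR adjusted p = 0.0951). It was also lost against the f/+ or the +/+ tumours alone (0.48 and 0.47), without KO replicates 1 and 3 (0.53) and in limma on log2(FPKM + 1), at 0.21 (adjusted p = 0.12). In GENCODE, where its neighbour Trim47 extends to base 116127210, Trim47 shares 225 bases of exon with it on the same strand, and 5.94% of its 50-base stretches. The counted transcripts do not overlap, with Trim47 at chr11:116105750-116110235 and Trim65 at chr11:116124708-116131128.

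Trim21, the cytosolic receptor for antibodies bound to virus, was at 17.98, 24.2, 19.997 and 18.1 CPM in the tumours labelled KO, against 15.6, 15.2, 13.0 and 14.2 CPM in those labelled WT. The groups did not overlap, and the log2 fold change was 0.47 ± 0.12 (SE, edgeR adjusted p = 0.0287). Without KO replicate 2 or 3 or WT replicate 3 or 4 Trim21 was not called, with log2 fold changes of 0.37, 0.47, 0.42 and 0.46. It was also lost with library totals alone, at 0.29 (edgeR adjusted p = 0.142).

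The other antiviral genes tested did not pass. Trim25, which ubiquitinates the RNA sensor RIG-I and was the most abundant antiviral TRIM gene per kilobase (32.9 CPM in the tumours labelled KO and 34.1 CPM in those labelled WT), was at 162, 185, 179 and 205 CPM in the tumours labelled KO. The tumours labelled WT had 163, 131, 305 and 159 CPM. WT replicate 3 lay far above the other 7 tumours, and the log2 difference of -0.053 (edgeR adjusted p = 0.897) became 0.27 without it, neither being called. Trim56, which ubiquitinates the DNA-sensing adaptor STING, averaged 32.1 ± 2.03 CPM in the tumours labelled KO and 28.6 ± 4.14 CPM in those labelled WT (SD, n = 4 each), with a log2 difference of 0.17 that was -0.016 with library totals alone. Trim26, which turns over the transcription factor IRF3, averaged 82.9 ± 6.66 CPM in the tumours labelled KO and 80.8 ± 2.93 CPM in those labelled WT (SD, n = 4 each), a log2 difference of 0.037 (-0.14 with library totals alone). Trim23, which joins a ligase to an ADP-ribosylation factor domain, averaged 18.1 ± 2.88 CPM in the tumours labelled KO and 19.9 ± 3.72 CPM in those labelled WT (SD, n = 4 each), a log2 difference of -0.14. Adjusted p-values (edgeR) for these last 3 genes were 0.305, 0.750 and 0.584. Trim38, a brake on Toll-like receptor signalling, had 13 counts over all tumours and was not tested.

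Summed over the antiviral list, the levels were 554, 615, 531 and 518 CPM in the tumours labelled KO, against 426, 388, 563 and 423 CPM in those labelled WT. The groups overlapped through WT replicate 3, the tumour with 305 CPM of Trim25. No overlap between the groups, counted gene by gene, was found with the tumours labelled KO above for 5 of the 13 antiviral genes tested (38.5%, beside 13.1% of all genes tested) and below for 1 (7.69%, beside 12.3%). Among the 30 other genes tested, 2 lay wholly above and 2 wholly below (6.67% each).

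**Figure D3:**
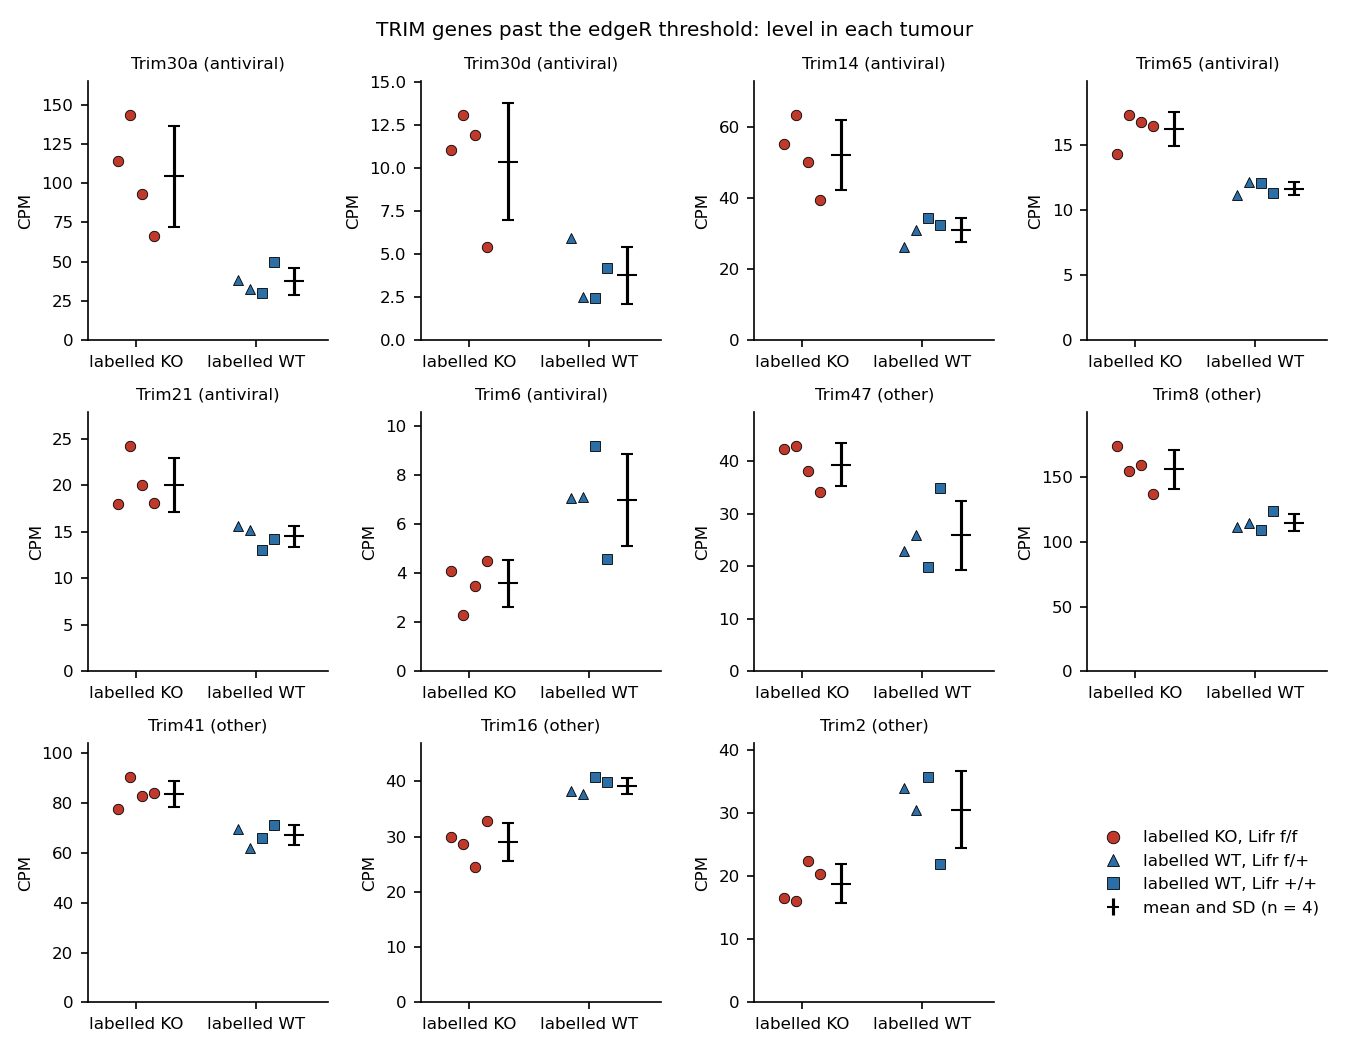
Level of each called TRIM gene in each tumour (y axis, TMM-scaled CPM), tumours labelled KO at the left of each panel and those labelled WT at the right, with the mean and SD (n = 4) beside the points; triangles are f/+ and squares +/+ at Lifr. Trim30a, Trim14, Trim65, Trim21, Trim8, Trim41, Trim6 and Trim16 separate the groups, while Trim30d, Trim47 and Trim2 overlap.

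Outside the antiviral list, 3 genes rose. Trim8, which ubiquitinates the kinase TAK1 in tumour necrosis factor signalling, was at 174, 155, 159 and 137 CPM in the tumours labelled KO, against 112, 115, 109 and 124 CPM in those labelled WT. The groups did not overlap, and the log2 fold change was 0.44 ± 0.09 (SE, edgeR adjusted p = 0.00965), a call that remained with any 1 tumour left out. The call was lost in limma on log2(FPKM + 1), at 0.25 (adjusted p = 0.0544), against the +/+ tumours alone (0.42) and without KO replicates 1 and 3 (0.35). After Trim28 it was the most abundant TRIM gene per kilobase, at 48.3 CPM in the tumours labelled KO and 35.5 CPM in those labelled WT.

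Trim41, a ligase first described for protein kinase C, was at 77.4, 90.3, 82.8 and 84.0 CPM in the tumours labelled KO, against 69.7, 62.0, 66.0 and 71.2 CPM in those labelled WT. Its groups did not overlap either. The log2 fold change was 0.32 ± 0.07 (SE, edgeR adjusted p = 0.0189). It was 0.14 with library totals alone (edgeR adjusted p = 0.232), and the call was lost without KO replicate 2 (0.28) or WT replicate 3 (0.31). Human TRIM41 has reported activity against viruses as well. Trim31, which acts on MAVS, is also outside the antiviral list, and it was not called. The border of that list is thus a choice, and how the counts would change with another border was not examined.

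Trim47, a SPRY-domain member next to Trim65, was at 42.3, 42.9, 38.1 and 34.2 CPM in the tumours labelled KO, against 22.9, 26.0, 19.9 and 34.996 CPM in those labelled WT. The groups overlapped, as WT replicate 4 lay above KO replicate 4. The log2 fold change was 0.60 ± 0.17 (SE, edgeR adjusted p = 0.0363), and this was the least stable of the calls: it was lost with library totals alone (0.42) and without any 1 tumour except KO replicate 4 or WT replicate 4, at 0.49 to 0.62.

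Trim16, which lacks a RING finger and takes part in the clearance of damaged lysosomes, fell. Its levels were 30.02, 28.6, 24.5 and 32.8 CPM in the tumours labelled KO, against 38.2, 37.7, 40.7 and 39.9 CPM in those labelled WT, and the groups did not overlap. The log2 fold change was -0.43 ± 0.10 (SE, edgeR adjusted p = 0.0152), and the call remained with any 1 tumour left out. Trim2, a neuronal ligase for the light neurofilament chain, was at 16.5, 16.0, 22.4 and 20.4 CPM in the tumours labelled KO, against 34.0, 30.5, 35.7 and 22.0 CPM in those labelled WT. The groups overlapped, since WT replicate 4 lay below KO replicate 3. Trim2 fell by 0.70 ± 0.17 on the log2 scale (SE, edgeR adjusted p = 0.0229), and it was not called without KO replicate 1 or 2 or WT replicate 1 or 3, at log2 fold changes of -0.65, -0.63, -0.64 and -0.61.

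The genes outside the antiviral list with the highest levels per kilobase that did not pass were Trim28, Trim44, Trim35, Trim3 and Trim11. Trim28, the KAP1 corepressor that silences retroelements through KRAB zinc fingers, was the TRIM gene with the highest level per kilobase, 65.7 CPM in the tumours labelled KO and 73.3 CPM in those labelled WT. It averaged 212 ± 10.3 CPM in the tumours labelled KO and 236 ± 16.3 CPM in those labelled WT (SD, n = 4 each), a log2 difference of -0.16 with a 95% interval of -0.33 to 0.020. Trim44, a member without a RING finger, averaged 163 ± 7.24 CPM in the tumours labelled KO and 190 ± 13.3 CPM in those labelled WT (SD, n = 4 each), a log2 difference of -0.22 (edgeR adjusted p = 0.0654), and passed in DESeq2 (adjusted p = 0.0259) and without WT replicate 4 (edgeR adjusted p = 0.0345). Trim35, a RING-type ligase first found in haematopoietic cells, differed by -0.12. Trim3, a brain ligase with an NHL domain like that of Trim2, differed by -0.31 (edgeR adjusted p = 0.0871) and was called lower without KO replicate 4 (-0.42). Trim11, which helps to clear misfolded proteins, differed by 0.062, or by -0.11 with library totals alone. Under that scaling Trim28, Trim44, Trim35 and Trim3 were called lower, at -0.34, -0.40, -0.30 and -0.48.

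By function, none of the 5 chromatin and transcription genes tested passed (Trim24, Trim27, Trim28, Trim33 and Trim66), with log2 differences of -0.54 to 0.10 and a median of -0.22, beside 11.1% of all genes called higher and 10.8% called lower. Counts of 0 or 1 among 5 genes, as in these lists, are near that background. At an unadjusted p under 0.05, Trim33 and Trim24 were lower (edgeR), and DESeq2 called Trim24 alone. When set against the f/+ tumours labelled WT alone, Trim33 was called lower (edgeR). Of the 10 muscle and neuron genes, 5 were tested and Trim2 alone was called, with a median of -0.32. Of the 6 epithelial genes, 5 were tested and Trim16 alone was called in edgeR, with Trim15 as well in DESeq2. In that list the widest differences were not called, and the following genes are named after their values were seen. Trim31, a gut-enriched ligase that acts on MAVS and the NLRP3 inflammasome, was at 1.93, 1.36, 9.72 and 0.84 CPM in the tumours labelled KO, against 0.26, 2.14, 0.85 and 0.94 CPM in those labelled WT. Its log2 difference of 1.69 had a 95% interval of -0.26 to 3.64, with only KO replicate 3 standing out. Its neighbour Trim40, also expressed in the gut, was at 3.75 CPM in that same tumour and at 0.42 to 0.68 CPM in the other tumours labelled KO, against 0.31 to 0.745 CPM in those labelled WT. Trim15 averaged 2.18 ± 1.43 CPM in the tumours labelled KO and 5.54 ± 2.15 CPM in those labelled WT (SD, n = 4 each), a log2 difference of -1.35 (edgeR adjusted p = 0.0805). Trim29, a keratinocyte gene, was at 3.47, 4.09, 6.18 and 3.18 CPM in the tumours labelled KO, against 7.14, 3.21, 22.3 and 5.66 CPM in those labelled WT, and the groups overlapped.

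Trim26, Trim15, Trim10, Trim40 and Trim31 form another run, over 73.07 kb of chromosome 17, in which none was called and Trim10 was not tested. Both erythroid genes, Trim10 and Trim58, were under the filter in the main fit, with 48 and 40 counts in all. Against the f/+ tumours labelled WT alone, Trim10 was tested and called lower. The genes without a count were Trim12a, Trim42, Trim43c, Trim52, Trim60, Trim61, Trim63 and Trim75, and at these depths 3 counts in a tumour correspond to 0.134 to 0.208 CPM. Among 6 TRIM-like genes with other symbols, 5 were tested. Mefv, which codes for pyrin, was higher (log2 fold change 1.45 ± 0.41, SE, edgeR adjusted p = 0.0355) and Mid2, a microtubule-bound ligase, was lower (-0.45 ± 0.14, SE, edgeR adjusted p = 0.0497). Pml, the organiser of PML nuclear bodies, did not pass (0.26).

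The scaling of the libraries shifted these counts. With library totals alone in place of TMM factors, the median log2 fold change over all genes moved to -0.17, and 4 TRIM genes were higher and 12 lower. Higher genes made up 50.7% of all calls with TMM and 22.5% with library totals. Under that scaling Trim30a, Trim30d, Trim14 and Trim8 remained higher and Trim6, Trim16 and Trim2 remained lower, 7 of the 11 calls. Trim65, Trim21, Trim41 and Trim47 kept their sign and were not called. In each of the 3 limma fits to the deposited FPKM values, 6 of the 11 calls remained, and Trim65, Trim21, Trim8, Trim41 and Trim47 were not called. For 14 TRIM genes, Trim21 and Trim2 among them, the FPKM values are of another transcript than the counts. Against the f/+ tumours labelled WT alone 5 of the 11 calls remained (Trim30a, Trim14, Trim8, Trim47 and Trim2), and Trim10 and Trim33 were called lower as well. Against the +/+ tumours alone none of the 11 calls remained (edgeR, with 1106 of all genes called in that comparison). At an unadjusted p under 0.05, 11 TRIM genes were higher and 5 lower against the +/+ tumours.

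**Figure D4:**
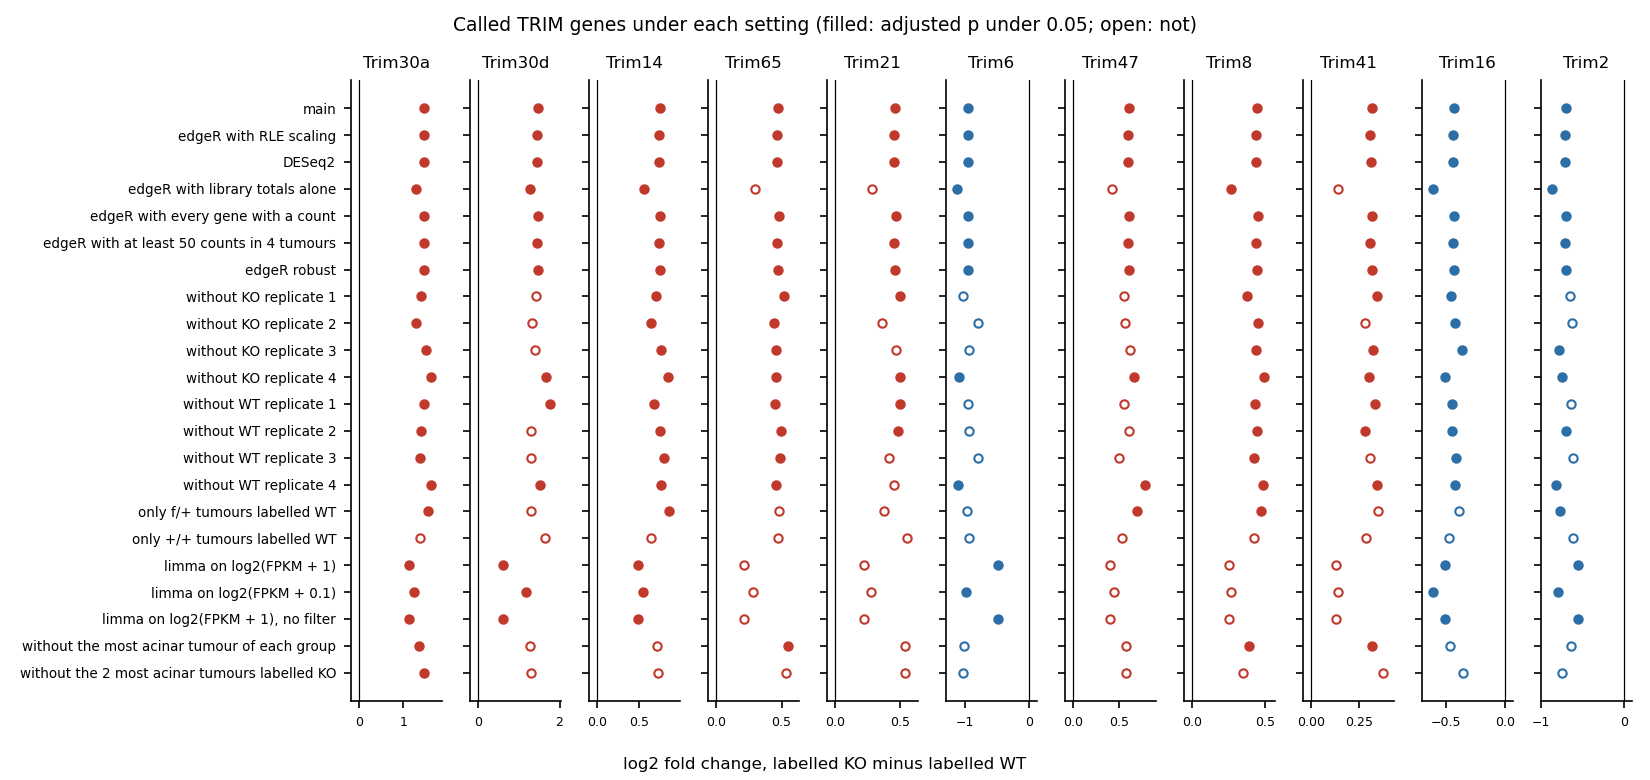
Log2 fold change (x axes, labelled KO minus labelled WT, a scale for each gene) of the 11 called TRIM genes in the main fit and in each of 21 alternatives (rows), filled where the adjusted p was under 0.05 and open where it was not. No gene changed sign; Trim30a was called in 20 of the 21 alternatives and Trim47 in 8.

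Of 17 genes of nucleic acid sensing and interferon signalling, 13 were called higher (76.5%, beside 11.1% of all genes), none lower (beside 10.8%) and 4 did not pass (Irf3, Irf7, Mavs and Tmem173) when the tumours labelled KO were set against those labelled WT, with a median log2 fold change of 0.85. The sensor regulator Dhx58 was at 29.2 ± 7.10 CPM in the tumours labelled KO and 9.87 ± 1.18 CPM in those labelled WT (SD, n = 4 each), and was called at a log2 fold change of 1.56 (edgeR adjusted p = 0.0044). The DNA sensor cGAS (Mb21d1), the RNA sensor MDA5 (Ifih1) and the interferon receptor chain Ifnar2 were higher by 1.11, 0.70 and 0.85. MDA5 is the sensor that Trim65 acts on. RIG-I (Ddx58), on which Trim25 acts, was also called higher, by 1.14, though Trim25 was not. At an unadjusted p under 0.05, 16 of these genes were higher and none lower, and DESeq2 also called 16 higher and none lower.

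Markers of other cells moved with the groups too. All 10 macrophage markers were called higher (beside 11.1% of all genes) in the tumours labelled KO, where they summed to between 19148 and 24622 CPM, against 7254 to 12931 CPM in those labelled WT. Of 10 epithelial markers 9 were called lower (beside 10.8% of all genes), and the 10 summed to between 3454 and 4953 CPM in the tumours labelled KO, against 6637 to 8685 CPM in those labelled WT. Epcam, the gene of the sort marker, averaged 421 ± 57.7 CPM in the tumours labelled KO and 775 ± 96.5 CPM in those labelled WT (SD, n = 4 each). Its log2 fold change was -0.88 (edgeR adjusted p = 0.00519). The median log2 fold changes were 1.18 for the macrophage and -0.81 for the epithelial list. None of the T cell, B cell, fibroblast, endothelial, acinar or erythroid markers was called in edgeR, while DESeq2 called Lum and Prss2 higher. Median log2 fold changes were still 0.73 for the T cell, 0.75 for the B cell, 1.27 for the fibroblast, 0.12 for the endothelial and 2.73 for the acinar list. Fibroblast markers summed to between 744 and 4186 CPM in the tumours labelled KO and between 396 and 1498 CPM in those labelled WT, a wide and overlapping spread. At an unadjusted p under 0.05, 3 fibroblast, 2 acinar and 1 B cell marker were higher. The acinar markers nonetheless summed to between 1669 and 34265 CPM in the tumours labelled KO and between 396 and 7469 CPM in those labelled WT, highest in KO replicates 1 and 3 and WT replicate 2. Without KO replicate 1 and WT replicate 2, 4 TRIM genes were called higher (Trim30a, Trim65, Trim8 and Trim41) and none lower in edgeR, against 12 higher and 5 lower at an unadjusted p under 0.05. Without KO replicates 1 and 3, Trim30a was higher and Trim15 lower. The part of the macrophage, epithelial and acinar RNA in the TRIM results was not tested.

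**Figure D5:**
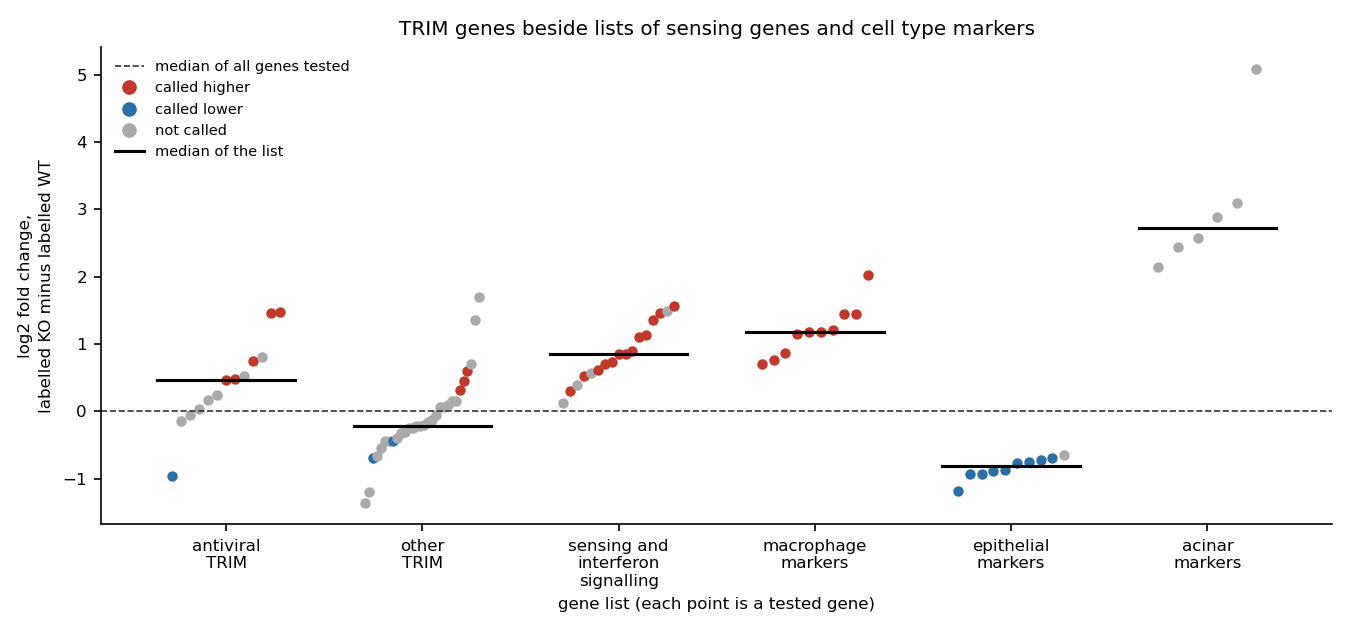
Log2 fold change (y axis, labelled KO minus labelled WT) of every tested gene in 6 lists (x axis), coloured by its call, with the median of each list as a black line and that of all genes tested dashed. The antiviral TRIM median was 0.47, that of all genes 0.011, and those of the sensing and macrophage lists 0.85 and 1.18. The other TRIM genes centre on -0.21, the epithelial list on -0.81 and the acinar list, with no gene called, on 2.73.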

How the data were processed

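RNA of 8 tumours, each from a separate mouse, was sequenced. Per the file headers, the authors deposited raw counts of tags in exons of mm10 RefSeq transcripts (HOMER, plus-strand setting, 1 transcript per gene) and FPKM values from the same program. Whether the library kit marks strand is not given in the sources used here. The submitters' processing notes also name FastQC 0.11.2, STAR 2.4.0k and edgeR 3.6.8. Groups follow the sample titles, and replicate numbers follow the listing and pair nothing. An allele that all the mice share is not reported here.

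The count test was that of edgeR 4.0.16 under R 4.3.3 (quasi-likelihood, TMM, filterByExpr with a minimum count of 10, threshold 0.05), after a check on simulated data. Alternatives used DESeq2 1.42.0, limma 3.58.1 on log2 of the deposited FPKM plus 1 or 0.1, other scalings and filters, fewer controls and each tumour left out. Transcript sharing was counted on GENCODE M21 transcripts in stretches of 50 bases. These transcripts can differ in length from the counted ones, so the shares are approximate for the counted sequences. Named were the antiviral genes with a count, other called members, and the 5 most abundant per kilobase of the rest. The other lists gave their called genes of smallest p, at most 4 each. Genes named beyond this rule, Ddx58 and Pml among them, were chosen after their values were seen. The members and lists were chosen with earlier results of these data known.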

Additional observations from a re-analysis of the deposited data

Results flagged for a closer look

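In 7 of the 86 groups of 4 tumours looked at (each tested TRIM gene in each group), 1 tumour stood apart from the other 3 by Dixon's 95% criterion, which chance meets in about 1 in 20 groups. Trim31 was at 9.72 CPM and Trim40 at 3.75 CPM in KO replicate 3, against 0.843 to 1.93 and 0.421 to 0.682 CPM in the other tumours labelled KO. These genes are neighbours on chromosome 17, and KO replicate 3 was also the tumour with the second highest acinar marker sum. Trim39, the MHC-region ligase, was at 42.1 CPM in that tumour and at 31.2 to 32.9 CPM in the others labelled KO. Trim56 was at 35.2 CPM in KO replicate 1 (others labelled KO 31.0 to 31.3) and at 34.8 CPM in WT replicate 2 (others labelled WT 26.0 to 26.9), the tumours with the highest acinar sum of each group. Trim44 was at 173 CPM in KO replicate 4 (others labelled KO 158 to 160). Trim45 was at 6.24 CPM in WT replicate 2 (others labelled WT 3.70 to 4.07). What set these tumours apart was not tested.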

How the results depend on the processing

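Of the 11 called genes, none changed sign in the 21 alternatives, and each lost its call in at least 1. Of the 23 tested TRIM genes recomputed one by one, 4 turned sign in some alternative, Trim25, Trim26, Trim56 and Trim11, none of them called; the other 20 were not followed singly. Trim25 was 0.27 without WT replicate 3 (-0.19 to 0.27 with any 1 tumour left out), 0.31 against f/+ controls and 0.040 without KO replicates 1 and 3. Trim26 was -0.14 with library totals, -0.028 without KO replicate 1 (-0.028 to 0.077 with any 1 tumour left out), -0.13, -0.14 and -0.13 with FPKM (pseudocounts of 1 and 0.1, and 1 unfiltered) and -0.035 without the most acinar tumour of each group. Trim56 was -0.016 with library totals and -0.0021, -8.1e-05 and -0.0021 with FPKM. Trim11 was -0.11 with library totals, -0.057 against +/+ controls and -0.095, -0.10 and -0.095 with FPKM. For Trim26 and Trim11 the FPKM values are of another transcript than the counts. The cause of the turns in sign was not tested.

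Among all genes 3216 were called, 1755 to 3241 with 1 tumour left out (lowest without KO replicate 2, and 2077 without WT replicate 3), 1926 against f/+ and 1106 against +/+ controls. The following counts are of TRIM genes in the order all, antiviral, others. Higher were 8, 5 and 3 in the main fit, 4, 3 and 1 with library totals, 4 and 2 (the first and second) against f/+ controls, 0, 0 and 0 against +/+ controls and 3, 3 and 0 in each of the 3 FPKM fits. Lower were 3, 1 and 2 in the main fit, 6 and 5 (all and others) in DESeq2, 12 and 11 with library totals, 12 and 11, 11 and 10, and 10 and 9 in the FPKM fits and 0, 0 and 0 against +/+ controls. Against f/+ controls the lower counts were 3, 0 and 3. With 1 tumour left out, the higher counts were 4 to 9, 3 to 6 and 1 to 3, and the lower ones 1 to 7, 0 to 1 and 1 to 6.

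Leaving out the acinar-rich tumours was chosen after seeing the data. Without the highest of each group, 1892 genes were called, with 4 and 2 higher (all and antiviral) and 0, 0 and 0 lower. Without KO replicates 1 and 3, 1138 were called, with 1, 1 and 0 higher and 1, 0 and 1 lower. The antiviral median was 0.23 with at least 50 counts in 4 tumours, where fewer members are tested, and 0.15 with FPKM plus 1, filtered or not. That of the others was -0.39 with library totals and -0.38 with FPKM plus 0.1. Fits with 2 controls or fewer tumours have less power by construction. At these depths 24 members had too few counts to test. No paired analysis was possible because the replicate numbers follow the listing and the labels pair no tumours.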
